A study of Mus musculus with 6 samples.

Results

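The genes described here encode the enzymes and loading factors that copy DNA, together with a few that repair it by homologous recombination. They were 53 genes taken by symbol from a fixed list, out of 52550 genes listed in the files, and all 53 passed the filter on low values that left 17185 genes for testing. Transcript levels were read by mRNA sequencing of splenic γδ T cells, as the labels call them, of the C57BL/6 strain, cultured for 3 days. CD3 and CD28 antibodies bound to the plate stimulated all cultures, and IL-23 with IL-1β was added to all of them. Control libraries (n = 3) had no further agent. The remaining libraries (n = 3) were also treated with DON, an agent known from the labels by these letters only. Whether replicates are different animals or cultures is not stated, so p-values reflect only the variation among these libraries, which may be technical.

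Before a cell divides it copies its genome once. Origins of replication are marked by the origin recognition complex and loaded with the ring-shaped MCM helicase, and kinases then switch the helicase on at the start of S phase. Polymerases, a sliding clamp and its loaders copy the strands, chromatin assembly factors package them, and recombination proteins mend broken forks. Many of these genes are transcribed under E2F factors as cells enter the cycle, and T cells switch them on when their antigen receptor is stimulated.

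Recovered depth ranged from 33715873 to 40840099 counted units per library. DON library 1 stood apart from DON libraries 2 and 3: the chi-square per gene between libraries was 51.7 and 48.2 for its pairs with them, against 18.6 between those and 17.4 to 20.8 among controls. The 4 γδ T cell markers were above 0 in every library and summed to between 6707 and 7066 normalized counts in controls and between 5934 and 6363 in DON, with none called. Genes of αβ T cells were also present in every library against the γδ label: the 6 markers summed to between 68301 and 72043 in controls and between 70718 and 80388 in DON, with none called, and Cd4 alone stood at 13107 to 13928. B cell markers, all 8 of which fell in DON, summed to between 65744 and 69042 normalized counts in controls and between 47095 and 53743 in DON. Of 8 granulocyte markers 7 were tested and all 7 fell, from sums of 10708 to 11420 in controls to 1815 to 2308 in DON. T cell markers summed to between 53056 and 53686 in controls and between 60303 and 68944 in DON, and 2 of 5 rose. Of 6 macrophage markers 3 rose (sums of 6984 to 7077 and 8650 to 9629), and of 6 erythroid markers 1 rose (24236 to 24965 and 27908 to 32809). No listed marker was at 0 in all libraries. The part of these cell type markers in the results below was not tested, and in bulk libraries fewer cells of a type and less RNA per cell cannot be told apart.

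Most of the replication genes gave no call between DON and control libraries, while a few members were lower in DON, with control means from 1.57 times (Blm) to 4.87 times (Ccne2) the DON means. Of 53 members, 5 fell (Ccne2, Mcm10, Cdc6, Chaf1a and Blm), 1 rose (Cdc7) and 47 did not pass the test, which was limma on normalized counts as log2(value + 1), with p adjusted over all genes by the Benjamini-Hochberg method and a threshold of 0.05. Among all tested genes, 4.15% were called lower and 2.30% higher, against 9.43% and 1.89% of the members. The edgeR test called the same 5 and 1 members, where 3.71% of all genes were lower and 2.09% higher. The median log2 change was -0.13 over the members and 0.00 over all tested genes. Summed over the 53 members, normalized counts in libraries 1, 2 and 3 were 61734, 61013 and 58622 for the control group and 57492, 58155 and 59140 with DON. The groups overlapped in this sum, and the DON mean was 96.4% of the control mean. All 3 DON libraries lay below all controls for 16 members (30.2%) and above them for 4 (7.55%), where 15.7% of all tested genes did so in each direction. The number that fell was 1 when any control library was left out, 2 without DON library 3 and 13 without DON library 1. Calls over all 17185 tested genes moved as well. There, 713 were lower with all libraries, and 220, 199 and 193 without control library 1, 2 or 3. Without DON library 3 the number was 311, and without DON library 1 it was 2118.

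**Figure D1:**
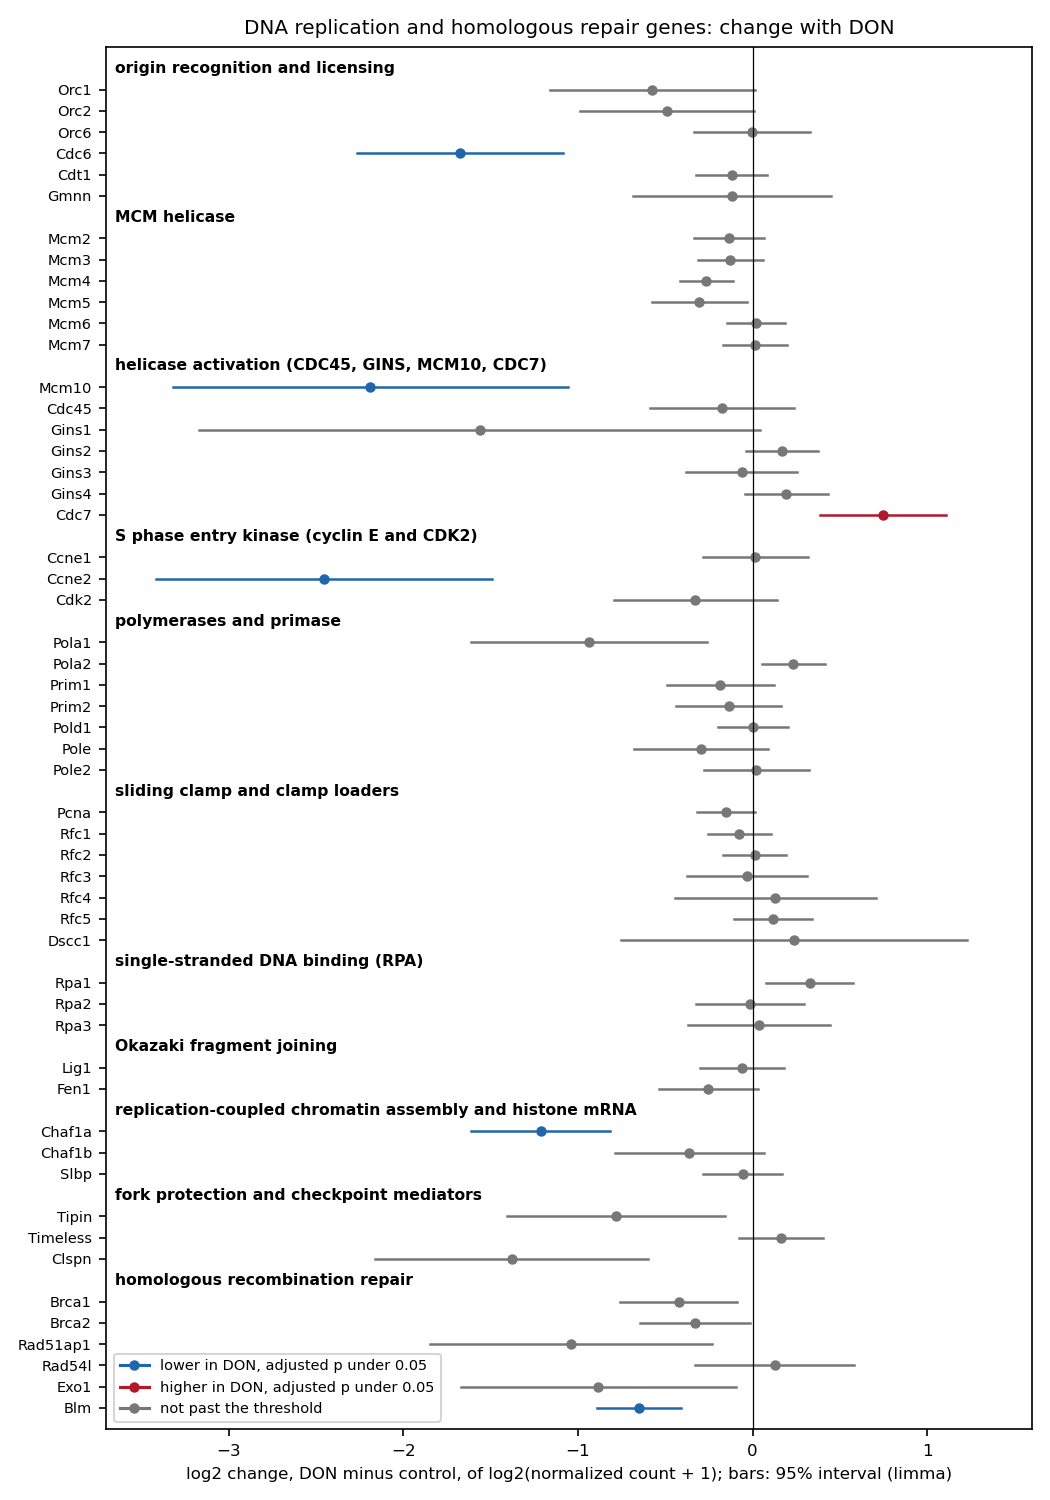
Log2 change of each of the 53 members, DON minus control, on the scale of log2(normalized count + 1), grouped by role. Points are limma estimates and bars 95% intervals from 3 libraries per group. The 5 members that fell lie between -0.65 and -2.46, and Cdc7 lies at 0.75. Members of the MCM helicase, clamp and RPA groups lie between -0.30 (Mcm5) and 0.33 (Rpa1).

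Promoter sequences were looked up because these genes are known as a co-regulated set. RefSeq windows on GRCm38.p6, from 250 bases before to 50 bases after a transcription start, were found for 41 of the 53 members (48 windows). The E2F motif was searched as TTTCCCGC, TTTCGCGC, TTTGCCGC or TTTGGCGC on either strand, and sites on opposite strands could overlap. It was found in 16 of 48 member windows (33.3%), against 2.26% of the 32851 windows of the table. Of the 4 members that fell and had a window, 1 held the motif (Cdc6); of the 36 that did not pass and had a window, 15 did. A match describes letters in these windows and is not a measured binding site. Only these 4 strings were counted, so a window without a match may still hold another form of the motif. The stretches below lie before the RefSeq start, read 5′ to 3′ along the gene's strand, and show the motif in capitals, first in Cdc6, which fell, and then in members that did not pass the test.
Cdc6, chr11:98907987-98908046, plus strand: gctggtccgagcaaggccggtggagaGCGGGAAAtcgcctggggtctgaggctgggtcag
Mcm5, chr8:75109330-75109393, plus strand: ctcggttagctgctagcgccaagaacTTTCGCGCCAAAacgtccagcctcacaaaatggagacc
Mcm6, chr1:128359719-128359841, minus strand: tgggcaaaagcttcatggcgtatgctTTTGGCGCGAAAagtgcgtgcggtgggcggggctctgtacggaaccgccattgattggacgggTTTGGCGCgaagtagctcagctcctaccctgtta
Pola1, chrX:93632260-93632319, minus strand: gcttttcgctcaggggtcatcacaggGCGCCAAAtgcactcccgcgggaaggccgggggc
Brca2, chr5:150522427-150522486, plus strand: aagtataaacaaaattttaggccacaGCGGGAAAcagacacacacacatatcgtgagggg
The RefSeq start of Cdc6 lies inside the gene as the files bound it, so its stretch begins after the gene start given with its values. The longer capital runs in Mcm5 and Mcm6 each hold a site on both strands that overlap.

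The CCAAT box, the letters CCAAT on either strand, is bound by the factor NF-Y in many cell cycle genes. It was found in 30 of 48 member windows (62.5%) and in 37.4% of all windows, and 3 of the 4 members that fell and had a window held it. The CHR element, searched as TTTGAA or TTCGAA on either strand and known from mitotic genes, was in 8 of 48 member windows (16.7%) and in 19.2% of all windows. None of the 4 members that fell and had a window held a CHR match, while both windows of Cdc7 did. Blm also fell and held no match to the E2F letters searched. Its CCAAT matches start at -186 and -161 from the RefSeq start, and the 120 bases before that start hold none. Mcm10 and Chaf1a fell, held no such E2F match in their windows and held CCAAT within those 120 bases, which are shown. The Chaf1a stretch does hold ttcccgc, all but the first letter of the searched TTTCCCGC, which was not counted as a match. Such near matches were not counted in any window. CCAAT is in capitals where it reads along the gene's strand or its complement.
Mcm10, chr2:5012792-5012911, minus strand: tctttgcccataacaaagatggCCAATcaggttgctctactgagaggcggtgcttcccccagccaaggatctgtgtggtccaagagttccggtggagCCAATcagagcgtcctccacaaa
Chaf1a, chr17:56040296-56040415, plus strand: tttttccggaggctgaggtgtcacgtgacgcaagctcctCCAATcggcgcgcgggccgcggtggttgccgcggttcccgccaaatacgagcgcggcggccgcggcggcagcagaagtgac

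Among the 6 genes of origin recognition and licensing, Cdc6 fell, none rose and 5 did not pass. Cdc6, which with Cdt1 loads the helicase onto origins (ENSMUSG00000017499.15, chromosome 11, 98907801 to 98923940), stood at 157, 159 and 114 normalized counts in control libraries 1 to 3. In DON libraries 1 to 3 it stood at 35.4, 44.6 and 52.7. Every DON library lay far below the lowest control, and the means were 143 ± 25.7 and 44.2 ± 8.65 (SD, n = 3 each). The log2 change was -1.68 (SE 0.25, limma adjusted p = 0.0121; edgeR adjusted p = 0.0121). Without control library 1 or 2 the call ended, at log2 changes of -1.60 and -1.59. Its partner Cdt1 read 1591, 1614 and 1474 in controls and 1367, 1555 and 1393 in DON, overlapping groups with a log2 change of -0.12 (95% interval -0.32 to 0.08). Gmnn, which encodes the Cdt1 inhibitor geminin, read 182, 210 and 225 in controls and 202, 252 and 132 in DON. Its DON libraries spread on both sides of the controls, and its log2 change was -0.12 (interval -0.69 to 0.45).

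The origin recognition subunits did not pass either. Orc1 was at 140, 132 and 142 in controls and at 76.5, 76.7 and 133 in DON (log2 change -0.57, limma adjusted p = 0.204), with DON library 3 inside the control range. Orc2 read 1331, 1511 and 1191 in controls and 1313, 700.2 and 936 in DON (log2 change -0.49), and here DON library 1 was the one inside the control range. Orc6 had a log2 change of -0.00 (interval -0.33 to 0.33).

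Transcripts of the 6 subunits of the MCM helicase, the motor that unwinds DNA at the fork, had changes of small size. None of the 6 fell or rose past the threshold in limma or in edgeR, and DESeq2 called Mcm4 lower. At an unadjusted p under 0.05 in limma, 2 of the 6 were lower, against 2422 of all 17185 tested genes. Every DON library lay below every control for 3 of the 6 (50%), against 15.7% of all tested genes. Log2 changes ran from -0.30 for Mcm5 to 0.02 for Mcm6, and the 95% intervals of all but Mcm5 lay within 0.5 of 0. Mcm2 read 2292, 2572 and 2346 in controls and 2024, 2198 and 2340 in DON, so that the groups overlapped (log2 change -0.14, interval -0.34 to 0.06). Mcm5 read 1655, 1534 and 1473 in controls and 1070, 1329 and 1395 in DON, with no overlap (log2 change -0.30, limma adjusted p = 0.155). Mcm4 came nearest the threshold. It read 3621, 3886 and 3808 in controls and 3118, 3213 and 3081 in DON, a log2 change of -0.27 (SE 0.06, limma adjusted p = 0.053; DESeq2 adjusted p = 0.013). The log2 changes of Mcm3 (-0.13, interval -0.32 to 0.06), Mcm6 (interval -0.14 to 0.19) and Mcm7 (interval -0.17 to 0.20) lay close to 0.

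The factors that turn the loaded MCM ring into a working helicase moved in both directions. Of 7 members, Mcm10 fell, Cdc7 rose and 5 did not pass. Mcm10, which is needed for the helicase to start unwinding (ENSMUSG00000026669.14, chromosome 2, 4989714 to 5012791), stood at 115, 144 and 71.8 normalized counts in controls. It stood at 24.9, 40.1 and 11.1 in DON. No DON library reached the lowest control, although this was among the scarcest members and its spread was wide. Its means were 110 ± 36.2 and 25.4 ± 14.5 (SD, n = 3 each), a log2 change of -2.19 with an SE of 0.49 (limma adjusted p = 0.0419; edgeR adjusted p = 0.0464). Leaving out any single control library or DON library 3 ended the call, with log2 changes of -1.71 to -2.47.

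Cdc7, the catalytic subunit of the kinase that phosphorylates the MCM ring to fire origins (ENSMUSG00000029283.17, chromosome 5, 106964322 to 106984432), went the other way. It read 511, 515 and 746 in controls and 962, 1014 and 955 in DON. All DON libraries lay above the highest control, library 3, which itself stood above the other controls. The means were 590.5 ± 134 and 977 ± 32.2 (SD, n = 3 each), a log2 change of 0.75 with an SE of 0.16 (limma adjusted p = 0.0345; edgeR adjusted p = 0.0439). The call ended without DON library 2 or 3, or without control library 1 or 2, with log2 changes of 0.66 to 0.76. Its activating subunit Dbf4, from the list of other replication genes, had a log2 change of -0.11 (interval -0.34 to 0.11).

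Other helicase activators gave no call. Cdc45 (log2 change -0.18) and the GINS subunits Gins2 (0.17), Gins3 (-0.06) and Gins4 (0.19) travel with the MCM ring and had levels between 146 and 2717 normalized counts. Gins1, the fourth GINS subunit, was near the floor at 61.6, 56.0 and 33.8 in controls and 32.5, 4.46 and 25.3 in DON (log2 change -1.56, interval -3.17 to 0.04). Gins2 shares 67.3% of its exonic bases with Gse1 on the opposite strand, at 4502 normalized counts in controls, and the sources used here do not give whether reads were assigned by strand.

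Cyclin E and CDK2 form the kinase that drives entry into S phase, and the cyclin genes differed. Ccne2 (ENSMUSG00000028212.16, chromosome 4, 11191351 to 11204779) stood at 235, 244 and 246 normalized counts in controls, a narrow range. It stood at 86.1, 24.1 and 38.5 in DON, every library far below the controls and library 1 the highest. The means were 241 ± 6.05 and 49.6 ± 32.4 (SD, n = 3 each), and the log2 change of -2.46 was the most negative among the members (SE 0.41, limma adjusted p = 0.018; edgeR adjusted p = 0.0247). After correction for transcript GC content, which is 36.3% for Ccne2, it was -1.78 (limma adjusted p = 0.013). The call ended without any single control library or without DON library 3, at log2 changes of -2.37 to -2.48. Ccne2 shares 17.4% of its exonic bases with Ints8 on the opposite strand, which stood at 2229 in controls and 1527 in DON. Ccne1 read 564, 663 and 492 in controls and 578, 590 and 556 in DON, overlapping throughout (log2 change 0.01, interval -0.29 to 0.31). Cdk2 had a log2 change of -0.33 (interval -0.79 to 0.14).

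**Figure D2:**
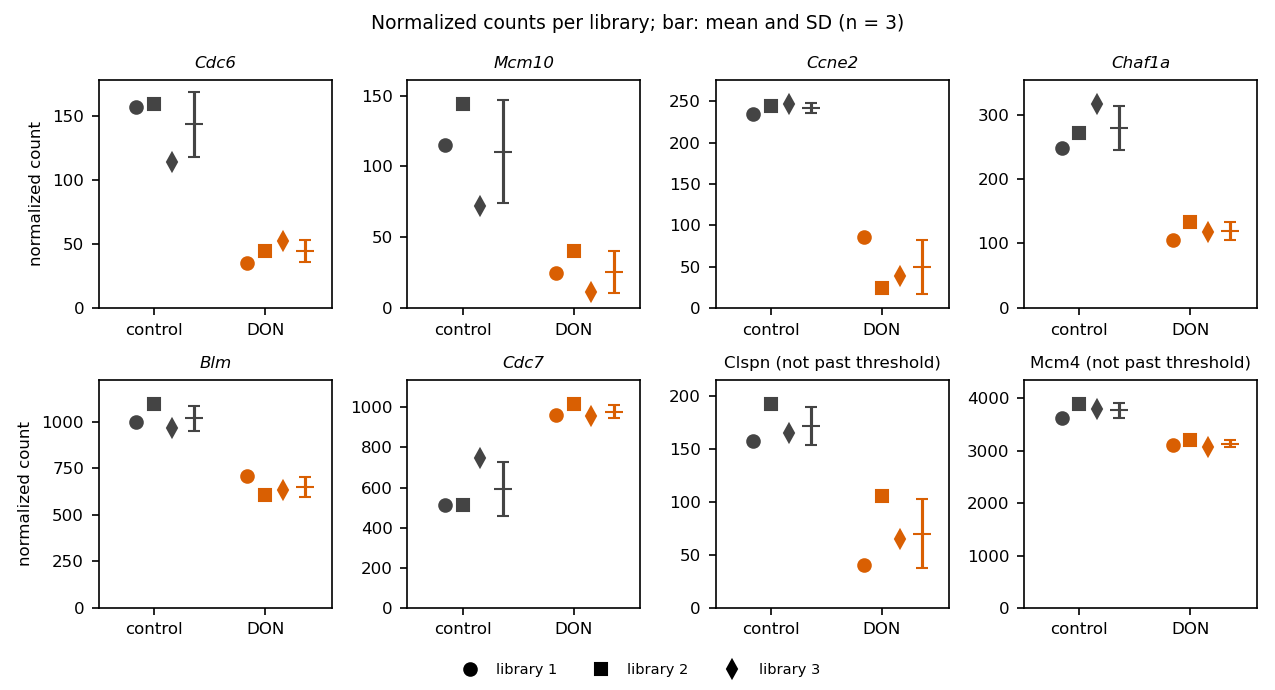
Normalized counts (linear axis from 0) in each library for the 6 members that passed the test and for Clspn and Mcm4, which came nearest to it. Symbols mark libraries 1 to 3 and bars the mean and SD of 3 libraries. In all 8 panels the control and DON libraries do not overlap, with Cdc7 the one gene higher in DON.

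No polymerase or primase gene passed: none of 7 was called by limma or edgeR, and DESeq2 called Pola1 lower. In limma, 2 of the 7 had an unadjusted p under 0.05. Of all 17185 tested genes, 2422 were lower and 1955 higher at that level. Pola1, the catalytic subunit of the polymerase that starts each new strand, read 471, 597 and 408 in controls and 397, 176 and 233 in DON. DON library 1 lay just under the lowest control and libraries 2 and 3 well under it (log2 change -0.94, SE 0.29, limma adjusted p = 0.097; DESeq2 adjusted p = 0.0311). Its partner subunit Pola2 read 1946, 1908 and 1818 in controls and 2126, 2381 and 2169 in DON, all above the controls (log2 change 0.23, limma adjusted p = 0.115). Pole, the catalytic subunit of the leading strand polymerase, read 496, 426 and 607 in controls and 423, 357 and 460 in DON (log2 change -0.29, interval -0.68 to 0.09). The lagging strand polymerase gene Pold1 (0.00), the polymerase ε subunit gene Pole2 (0.02) and the primase genes Prim1 (-0.19) and Prim2 (-0.14) had smaller log2 changes.

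The sliding clamp and its loaders gave no call in limma, edgeR or DESeq2. An unadjusted p under 0.05 in limma was seen in 0 of 7, against 2422 lower and 1955 higher of all 17185 tested genes. Pcna, the clamp that tethers polymerases to DNA, read 3982, 3663 and 3482 in controls and 3292, 3386 and 3313 in DON. The groups did not overlap, but the log2 change was small at -0.15 (limma adjusted p = 0.232, interval -0.32 to 0.01). The loader subunit genes Rfc1, Rfc2, Rfc3, Rfc4 and Rfc5 had log2 changes of -0.08, 0.01, -0.03, 0.13 and 0.12. Dscc1, part of an alternative loader used in sister chromatid cohesion, was scarce at 29.3 to 75.8 normalized counts and had a wide interval (log2 change 0.24, -0.75 to 1.23).

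RPA coats single-stranded DNA behind the helicase, and its 3 subunit genes did not pass. Rpa1 was higher in every DON library, at 6896, 6890 and 7226 against 6664, 5267 and 4965 in controls (log2 change 0.33, limma adjusted p = 0.113). Without control library 1, Rpa1 was called higher and Cdc7 was not. Rpa2 read 878, 1165 and 884 in controls and 887, 1036 and 952 in DON (log2 change -0.02, interval -0.33 to 0.29). For Rpa3 the log2 change was 0.04 and, after GC correction, 0.94 (limma adjusted p = 0.13), its transcript having the lowest GC content of the members at 34.2%. Of the enzymes that finish lagging strand fragments, the ligase gene Lig1 read 1042, 931 and 894 in controls and 840, 964 and 941 in DON (log2 change -0.06, interval -0.30 to 0.18). The flap nuclease gene Fen1 read 787, 689 and 633 in controls and 617, 532 and 616 in DON (log2 change -0.25, interval -0.54 to 0.03), and 78.8% of its exonic bases lie under the antisense gene Gm10143.

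Chaf1a was the replication-coupled chromatin gene that fell. It encodes the large subunit of CAF-1, the chaperone that deposits histones on new DNA (ENSMUSG00000002835.8, chromosome 17, 56040416 to 56068026). Control libraries held 248, 272 and 316 normalized counts and DON libraries 106, 134 and 119. The highest DON library lay well below the lowest control, and the means were 279 ± 34.3 and 119 ± 13.8 (SD, n = 3 each). The log2 change was -1.21 (SE 0.17, limma adjusted p = 0.00899; edgeR adjusted p = 0.00937), and without control library 3 it was -1.12 (limma adjusted p = 0.052). Its exons lie over those of Ubxn6 on the opposite strand for 52.5% of their length, and Ubxn6 stood at 2589 in controls and 2847 in DON. Chaf1b, the middle CAF-1 subunit, read 336, 379 and 319 in controls and 206, 306 and 303 in DON (log2 change -0.36, limma adjusted p = 0.262). Slbp, which binds the stem-loop of replication-dependent histone mRNAs, read 1336, 1627 and 1412 in controls and 1374, 1468 and 1355 in DON (log2 change -0.06, interval -0.28 to 0.17).

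The fork protection and checkpoint genes did not pass, with 2 of 3 lower at an unadjusted p under 0.05 in limma. Of all 17185 tested genes, 2422 were lower at that level. Clspn, whose product claspin passes the stalled-fork signal to the kinase CHK1, stood at 157, 192 and 165 in controls and 40.2, 105 and 64.8 in DON. The groups did not overlap, and the DON libraries differed among themselves (log2 change -1.38, SE 0.34, limma adjusted p = 0.053; edgeR adjusted p = 0.0672; DESeq2 adjusted p = 0.00596). Without DON library 1 the log2 change was -1.04 and without DON library 2 it was -1.72, both past the threshold. Tipin and Timeless form a pair that steadies the fork. Tipin read 436, 476 and 514 in controls and 440, 228 and 208 in DON, with library 1 inside the control range (log2 change -0.78, limma adjusted p = 0.122), and Timeless had a log2 change of 0.16 (interval -0.08 to 0.40).

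Of the 6 homologous recombination genes, Blm fell and 5 did not pass. At an unadjusted p under 0.05 in limma, Blm, Brca1, Brca2, Rad51ap1 and Exo1 were lower and Rad54l was not. Of all 17185 tested genes, 2422 were lower at that level. The sum of the 6 genes read 2738, 2735 and 2470 normalized counts in controls and 2158, 1804 and 1846 in DON, with no overlap. This was not particular to them. The sums of the licensing, MCM helicase and chromatin assembly groups also lay below all controls, at DON means of 83.3%, 93.0% and 86.0% of control, against 73.1% here. Those of the helicase activation and RPA groups lay above all controls, at 114% and 120%. Abundant genes weigh most in such sums. Rpa1 means were 5632 in controls and 7004 in DON, where RPA sums averaged 6915 and 8282. In helicase activation, Cdc7 (590.5 and 977) and Gins2 (2262 and 2551) had higher means in DON, while Mcm10 fell. Orc2 means were 1344 and 983, within licensing sums of 3787 and 3153. Blm means were 1018 and 647.5, within recombination sums of 2648 and 1936. The sums of the other role groups overlapped. Blm encodes the Bloom syndrome helicase, which dissolves recombination intermediates (ENSMUSG00000030528.12, chromosome 7, 80454733 to 80535119). It read 996, 1092 and 965 in controls and 707, 606 and 630.2 in DON, groups well apart. Its means were 1018 ± 66.1 and 647.5 ± 52.7 (SD, n = 3 each), a log2 change of -0.65 with an SE of 0.10 (limma adjusted p = 0.0145; edgeR adjusted p = 0.016). The call ended without any 1 library other than DON library 1, at log2 changes of -0.60 to -0.69.

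Brca1, which starts recombination at broken ends, read 607, 564 and 535 in controls and 506, 366 and 409 in DON. Brca2, which acts later in the same repair, read 506, 565 and 522 in controls and 493, 411 and 370 in DON. Neither pair of groups overlapped, and the log2 changes were -0.42 and -0.33 (limma adjusted p = 0.116 and 0.179). Without DON library 1 both passed, at -0.55 and -0.44. Exo1, a nuclease that trims broken ends, read 115, 82.3 and 107 in controls and 44.95, 88.3 and 39.5 in DON (log2 change -0.88, limma adjusted p = 0.157), with DON library 2 inside the control range. Rad51ap1, another recombination gene, read 142, 177 and 109 in controls and 112, 49.1 and 55.7 in DON (log2 change -1.04, limma adjusted p = 0.114). Rad54l, a DNA motor protein of recombination, had a log2 change of 0.13 (interval -0.33 to 0.58).

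**Figure D3:**
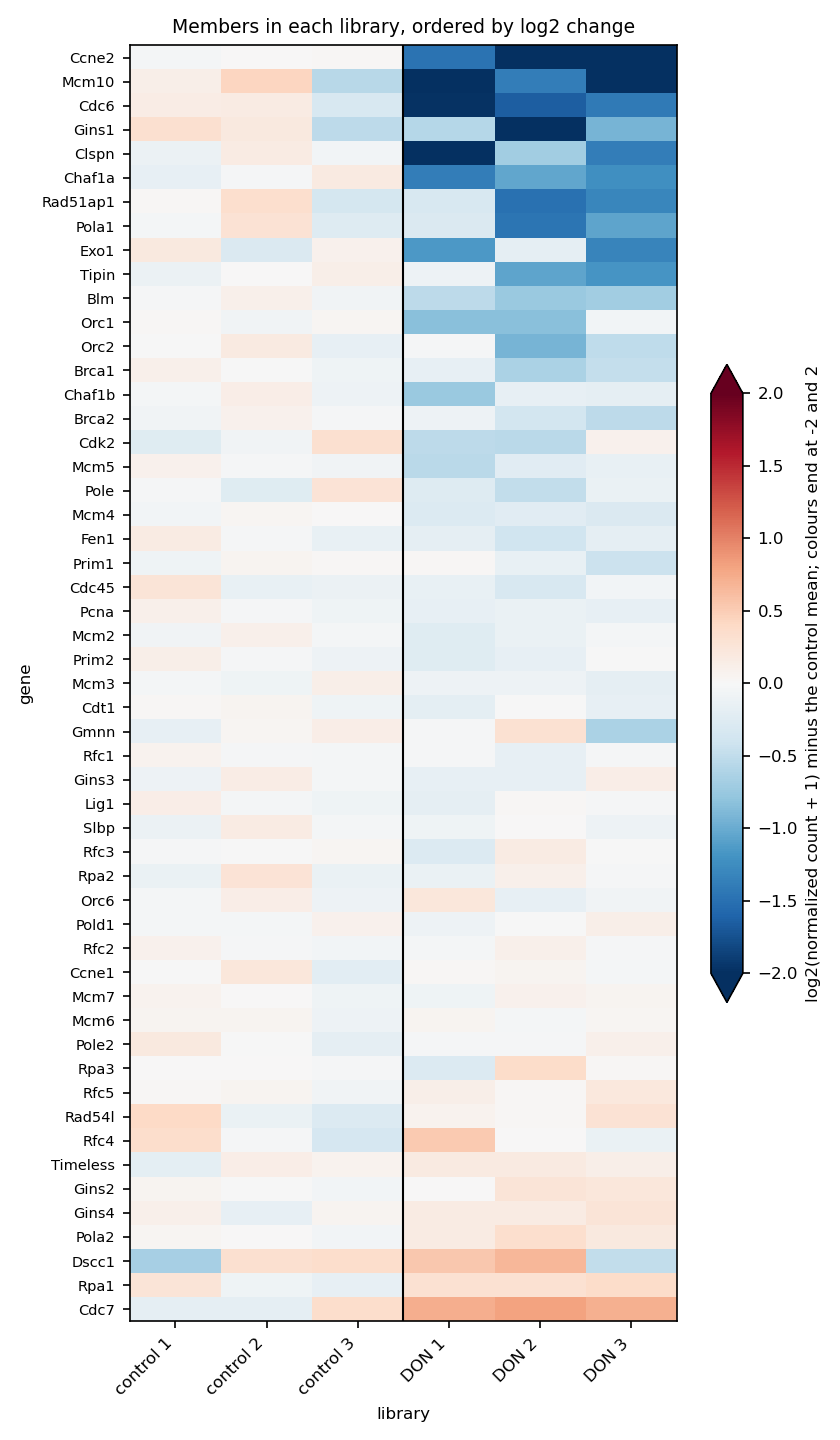
Each member in each library as log2(normalized count + 1) minus the control mean, ordered by log2 change, with colours ending at -2 and 2. Orc2, Prim1, Tipin and Rad51ap1 lie within the control range in DON library 1 and below it in DON libraries 2 and 3. Orc1, Mcm2, Gins3, Cdk2, Prim2 and Pole lie within it in DON library 3 and below it in DON libraries 1 and 2. Cdt1 and Exo1 lie within it in DON library 2 and below it in DON libraries 1 and 3.

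The DON libraries were not alike over the members. In 4 genes, Orc2, Prim1, Tipin and Rad51ap1, DON library 1 lay within the control range and libraries 2 and 3 below it. The reverse, library 1 below and libraries 2 and 3 both within, was seen in 1 gene, Lig1. Library 3 lay within the control range and libraries 1 and 2 below it in 6 genes, Orc1, Mcm2, Gins3, Cdk2, Prim2 and Pole. Library 2 lay within it and libraries 1 and 3 below it in 2 genes, Cdt1 and Exo1. In 6 members, Mcm6, Ccne1, Pole2, Rpa2, Slbp and Rad54l, all 3 DON libraries lay within the control range. When DON library 1 was left out, 13 members fell and 2 rose, with 2118 genes lower and 1119 higher among all tested, against 713 and 395 with it. The 8 that joined those that fell were Orc2, Mcm4, Pola1, Tipin, Clspn, Brca1, Brca2 and Rad51ap1. Gins2 joined Cdc7 among those that rose.

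Levels per kilobase of exons ordered the members over a wide range. Pcna led in controls at 1545 normalized counts per kilobase, followed by Mcm4 at 1051, Rpa1 at 1010 and Mcm6 at 944, and Dscc1 was lowest at 11.2. The members that fell stood at 14.3 (Mcm10), 27.4 (Cdc6), 31.5 (Chaf1a), 69.1 (Ccne2) and 116 (Blm) per kilobase in controls. Across the 53 members, Spearman's rho between control level per kilobase and log2 change was 0.45, a description over genes that share the same libraries. Standard errors were also larger for scarce genes: the median SE of the log2 change was 0.25 for the 23 members under 500 normalized counts in controls and 0.09 for the 19 members at 1000 or more.

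**Figure D4:**
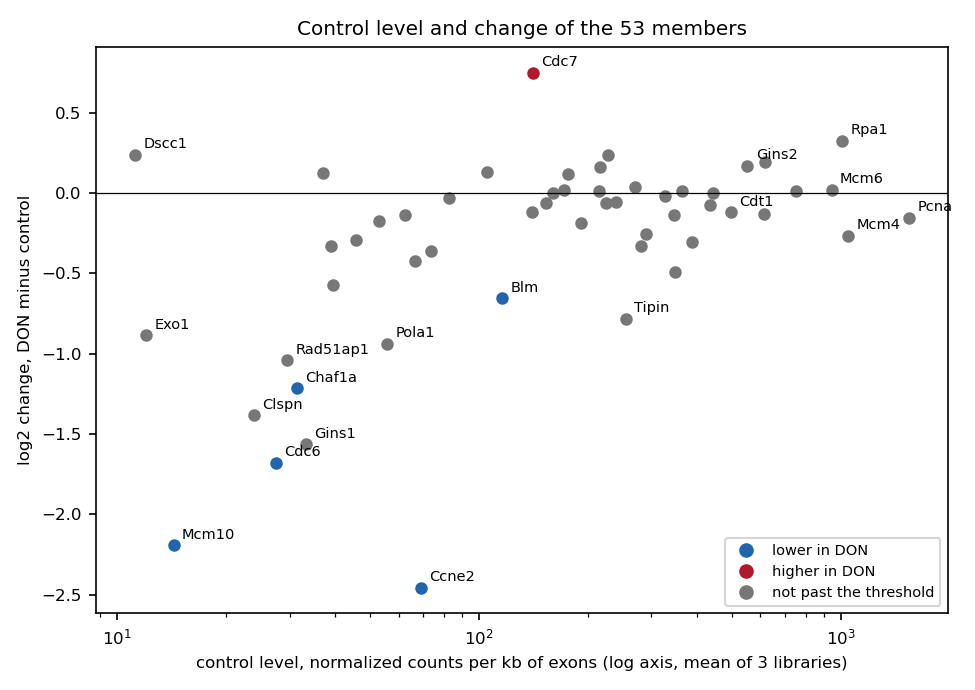
Control level per kilobase of exons (log axis, mean of 3 libraries) against log2 change, DON minus control, for the 53 members. The 5 members that fell lie at 116 or fewer normalized counts per kilobase, and the 4 most abundant, Pcna, Mcm4, Rpa1 and Mcm6, lie between -0.27 and 0.33.

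Other genes of the pathway were counted in the same fit. Of 35 other replication genes, 2 fell (5.71%), 2 rose (5.71%) and 31 did not pass, where 4.15% of all tested genes fell and 2.30% rose, and the list's median log2 change was -0.04. Chek1, the checkpoint kinase that claspin serves, stood at 124, 72.4 and 155 in controls and 44.9, 24.97 and 42.6 in DON, below every control (log2 change -1.59, limma adjusted p = 0.045). Atad5, which unloads the clamp, stood at 446, 403 and 573 in controls and 309, 209 and 194 in DON, again with no overlap (log2 change -1.01, limma adjusted p = 0.0367). Pold4, a small polymerase δ subunit, rose from 1331, 1263 and 1269 to 1788, 1726 and 1745 (log2 change 0.44, limma adjusted p = 0.0172). Cinp, a partner of the replication kinases, rose from 605, 652 and 768 to 953, 1036 and 935 (log2 change 0.53, limma adjusted p = 0.0387). All 4 calls ended when any 1 library other than DON library 1 was left out. Of 31 other recombination genes 30 were tested and none passed in limma, edgeR or DESeq2. In limma 3 had an unadjusted p under 0.05, where 2422 of all 17185 tested genes were lower and 1955 higher. Without DON library 1, 7 of the 30 fell, where 2118 of all 17185 tested genes fell.

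**Figure D5:**
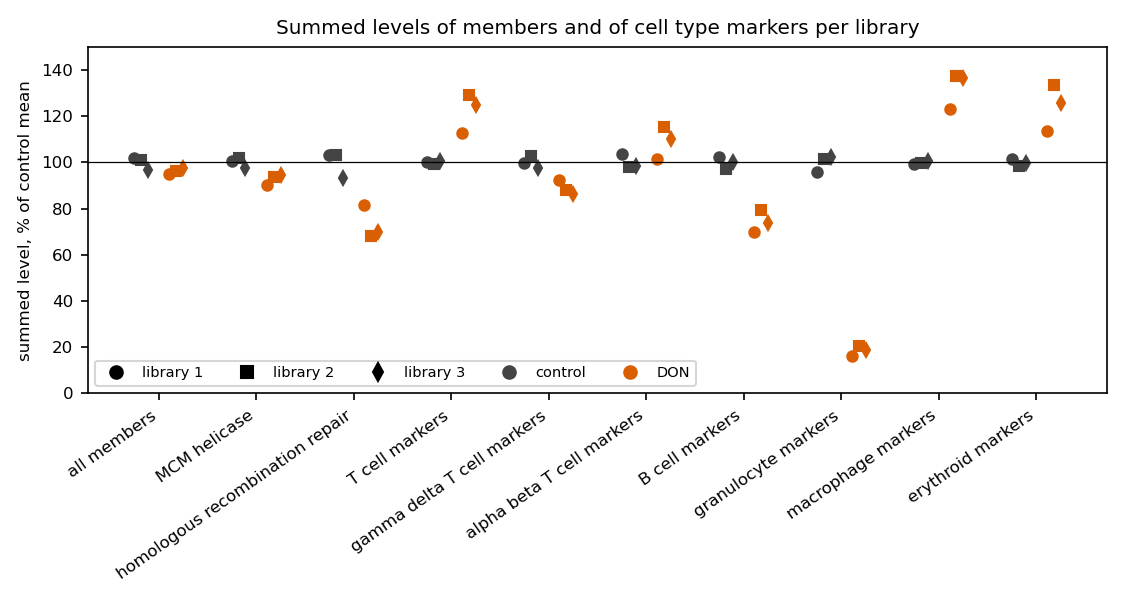
Summed normalized counts of the members, of 2 of their groups and of cell type markers in each library, as a percentage of the control mean (axis from 0). In DON libraries, granulocyte markers lie between 16.3% and 20.7% and B cell markers between 69.8% and 79.6%, while the members' sum lies between 95.1% and 97.8%.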

How the data were processed

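The signal deposited by the authors is a normalized count per gene and library, scaled by 1 factor per library as the values show. Per the submitters' processing notes HISAT2 and StringTie were used, and the builds named are mm8 and mm10, with no role given. Gene positions equal those of the GENCODE annotation of GRCm38 for 51 of the 53 members. Each deposited value is a whole multiple of 1 step per library (100% of values above 0, within 0.001), so whole units were recovered for edgeR and DESeq2, although a unit may not equal a read, since more genes stood at 4 units (854 to 903 per library) than at 3 (382 to 446).

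Genes sharing a symbol were summed, and genes at 10 or more in at least 3 of 6 libraries were tested with limma 3.58.1 (trend on, two-sided) on log2(value + 1), which understates the change of low genes. Adjustment was by Benjamini-Hochberg over 17185 genes, with edgeR 4.0.16 and DESeq2 1.42.0 as alternatives. Intervals are 95% limma intervals. The fit was tested on simulated data. By rule, every member is named, with values in every library for the members past the threshold and for a fixed set of representatives of each role, and up to 5 called genes of each other list are named. Library values of Mcm4, Orc1, Orc2, Gins1, Pola2, Rpa1, Chaf1b, Tipin and Rad51ap1, and the naming of Dbf4 and Cd4, were chosen after their values were seen. The members and lists were chosen with earlier results of these data known.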

Additional observations from a re-analysis of the deposited data

How the results depend on the processing

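The number of members that fell, 5 in the reported fit, was 8 with DESeq2, 3 without a variance trend, 3 with the replicate number as a block, and 1 to 13 when each library was left out in turn. The number that rose, 1, was 0 without the filter, without the trend, under the block and with DON library 1 alone, and 0 to 2 with each library left out. Among other replication genes, the 2 that fell became 0 without the filter, without the trend, under the block, under the block with GC correction and with DON library 1 alone, 1 under GC correction, and 0 to 8 with each library left out. The 2 that rose became 1 without the filter, 0 without the trend, under the block, under the block with GC correction and with DON library 1 alone, and 0 to 4 with each library left out. Other recombination genes that fell numbered 0 to 7 with each library left out. The cause was not tested. Among all genes, 713 fell and 395 rose in the reported fit, against 1348 and 786 with DESeq2, 483 and 220 without the filter, 291 and 72 without the trend, 240 and 48 under the block, and 354 and 163 under the block with GC correction. With each library left out in turn, 193 to 2118 of all genes fell and 65 to 1119 rose. The labels join same-numbered libraries by number only. The correlations of their deviations were -0.056, -0.054 and -0.052, and those of differently numbered pairs ran from 0.011 to 0.040. Deviations were taken from means of 3 libraries, which ties these values together, so they cannot decide whether libraries were paired.

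Of 442 recomputed values of 26 genes, 349 kept direction and side of the threshold, 71 no longer passed, 10 newly passed and 12 changed sign, all for genes that did not pass. The log2 change of Gmnn was 0.14 without DON library 3. That of Ccne1 was -4.8e-05 with edgeR, -0.066 with GC correction with or without the block, -0.090 without control library 3 and -0.0050 without DON library 2. That of Rpa2 was 0.12 without control library 2 and 0.04 without DON library 1, that of Lig1 0.0018 without control library 1, and that of Slbp 0.017 with GC correction with or without the block and 0.025 without control library 2. With each library left out, the lowest values of these genes were -0.33 for Gmnn, -0.086 for Rpa2, -0.11 for Lig1 and -0.12 for Slbp. The summed level kept its direction under every alternative run. The median SE of the log2 change was 0.25 for members under 500 normalized counts in controls and 0.09 for those at 1000 or more.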

Other observations

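Ratios of normalized counts between partner genes, chosen after their values were seen, were computed within each library. The ratio of Ccne2 to Ccne1 was 0.428 ± 0.067 (SD, n = 3) in controls, and with DON it was 0.0864 ± 0.0561 (SD, n = 3; two-sided exact permutation p = 0.1, the smallest that 3 against 3 libraries allow). The ratio of Chaf1a to Chaf1b was 0.816 ± 0.151 in controls and 0.448 ± 0.0632 in DON (exact permutation p = 0.1). The ratio of Cdt1 to Gmnn was 7.67 ± 1.10 in controls and 7.84 ± 2.39 in DON (exact permutation p = 1).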
